A study of Homo sapiens with 9 samples.

Results

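The drug-metabolising genes of HepG2, a human hepatoblastoma-derived liver cancer cell line, were read across cells carrying a control hairpin and 2 hairpins against TRIB3. The members were chosen by gene symbol, with earlier results of these data known: the cytochrome P450 genes of families 1 to 4, the UGT1A, UGT2A and UGT2B glucuronosyltransferases, the cytosolic sulfotransferases (SULT), and the alpha, mu, pi, theta, omega, zeta and kappa glutathione S-transferases (GST). NR1I2, NR1I3, AHR and POR were added by name. The rule found 76 of the 24204 gene symbols measured, of which 31 were P450, 16 UGT, 11 SULT and 14 GST genes and 4 were regulators. All 9 libraries came from HepG2 cells infected with lentivirus and then selected with puromycin, and the 3 groups of 3 differed in the hairpin, which was Control shRNA (shCtrl), TRIB3 sh1 (shTRIB3-1) or TRIB3 sh2 (shTRIB3-2). Puromycin followed 48 hours of infection and lasted a further 48 hours, so the controls carried the same virus type and selection as the knockdowns. TRIB3 encodes a pseudokinase of the Tribbles family that is induced under nutrient stress. The labels give high-glucose DMEM with serum as the medium, whereas the methods of the study describe glutamine-deprived cells, so the medium at harvest is uncertain. Nothing states that the 3 libraries of a group came from separate cultures, so the p-values below measure the spread between these libraries, which may be technical.

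The enzymes act in sequence. P450 enzymes insert oxygen into lipophilic drugs, steroids and fatty acids, with electrons that P450 oxidoreductase (POR) draws from NADPH. UGT, SULT and GST enzymes then attach glucuronic acid, sulfate or glutathione, which makes the products soluble enough to leave the cell. The pregnane X receptor (NR1I2), the constitutive androstane receptor (NR1I3) and the aryl hydrocarbon receptor (AHR) are ligand-activated transcription factors that induce many of these genes. Hepatocytes are the main site of this chemistry, and HepG2 is known for retaining only part of it.

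The libraries were close in depth, from 34206726 to 36311029 fragments. TRIB3 itself fell from a mean of 66.8 FPKM in shCtrl to 33.6 in shTRIB3-1 and 20.5 in shTRIB3-2, which is 50.3% and 30.8% of the control level. FPKM scale a fragment count by the length of the gene and the depth of the library, so levels of different genes are compared per length. On the markers of cell type, 8 of 8 hepatocyte markers and 4 of 4 markers of mature hepatocytes reached FPKM 1 in at least 3 libraries. The levels of both lists differed between the groups: the FPKM sum of the hepatocyte list was 8333 to 8988 in the control libraries, 8562 to 9000 with shTRIB3-1 and 10771 to 11084 with shTRIB3-2, and that of the mature list 368 to 417, 506 to 520 and 421 to 433. In the hepatocyte list TTR was at 212% and 328% of its control mean, AFP at 98.8% and 160.4%, and FGB at 52.8% and 72.3%. In the mature list HPD, which holds most of the sum, stood at 374, 498 and 412 FPKM. CYP7A1 was at 135.7% and 109.7% of its control mean. CPS1 was at 71.1% and 56.7%, and TAT, near FPKM 1, at 62.9% and 71.2%. In contrast, none of 4 stellate or fibroblast, 3 endothelial and 3 leukocyte markers reached FPKM 1 in at least 3 libraries. Markers of bile duct cells moved with the knockdown, since the FPKM sum of 4 of them was 426 to 431 in shCtrl, 780 to 821 in shTRIB3-1 and 793 to 807 in shTRIB3-2. In that list KRT19 rose from 234 to 632 and 622, EPCAM stood at 153, 146 and 160, SOX9 fell from 41.2 to 23.4 and 19.3, and KRT7 stayed near 0. Of all fragments, mitochondrial transcripts were 5.57% in shCtrl, 6.59% in shTRIB3-1 and 6.78% in shTRIB3-2. Whether any of these shifts bears on the results below was not tested.

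HepG2 transcribed part of the list well and part barely. FPKM reached 1 in at least 3 libraries for 39 members (12 P450, 8 UGT, 7 SULT, 9 GST and 3 regulators), and these were tested. The other 37 fell short of that minimum and comprised 19 P450, 8 UGT, 4 SULT and 5 GST genes and NR1I3. Some genes that fit the rule, such as UGT1A8, had no deposited value and are not among the 76. Whether genes at 0 throughout were left out is not stated. Every one of the 76 had a value above 0 in at least 1 library, but 16 of the 37 stayed under FPKM 0.1 in all 9. Among those 16 were the textbook drug metabolisers CYP2A6 and CYP2C19, together with CYP1B1 and GSTM1. A further 18 peaked between 0.1 and 1, including CYP3A4, CYP1A2, CYP2B6 and CYP2C8, and 3 (CYP2E1, GSTO2 and SULT1E1) reached 1 in only 1 or 2 libraries.

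At the top of the list stood 2 conjugation enzymes with a mean over the 9 libraries of 100 FPKM or more: GSTO1, an omega-class transferase, and SULT2A1, which sulfates dehydroepiandrosterone and bile acids. Another 18 members lay between 10 and 100, and 19 that passed the minimum lay under 10. No P450 gene of families 1 to 4 was above 21.7 FPKM in any group mean. In shCtrl the most abundant were CYP4F11 at 14.2 ± 0.759, CYP2W1 at 11.9 ± 0.971 and CYP4F3 at 11.01 ± 0.264 FPKM (SD, n = 3). For comparison, the leading UGT, SULT and GST genes in shCtrl were UGT2A3 at 60.04 ± 1.58, SULT2A1 at 182 ± 3.19 and GSTO1 at 206 ± 7.51 FPKM (SD, n = 3).

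**Figure D1:**
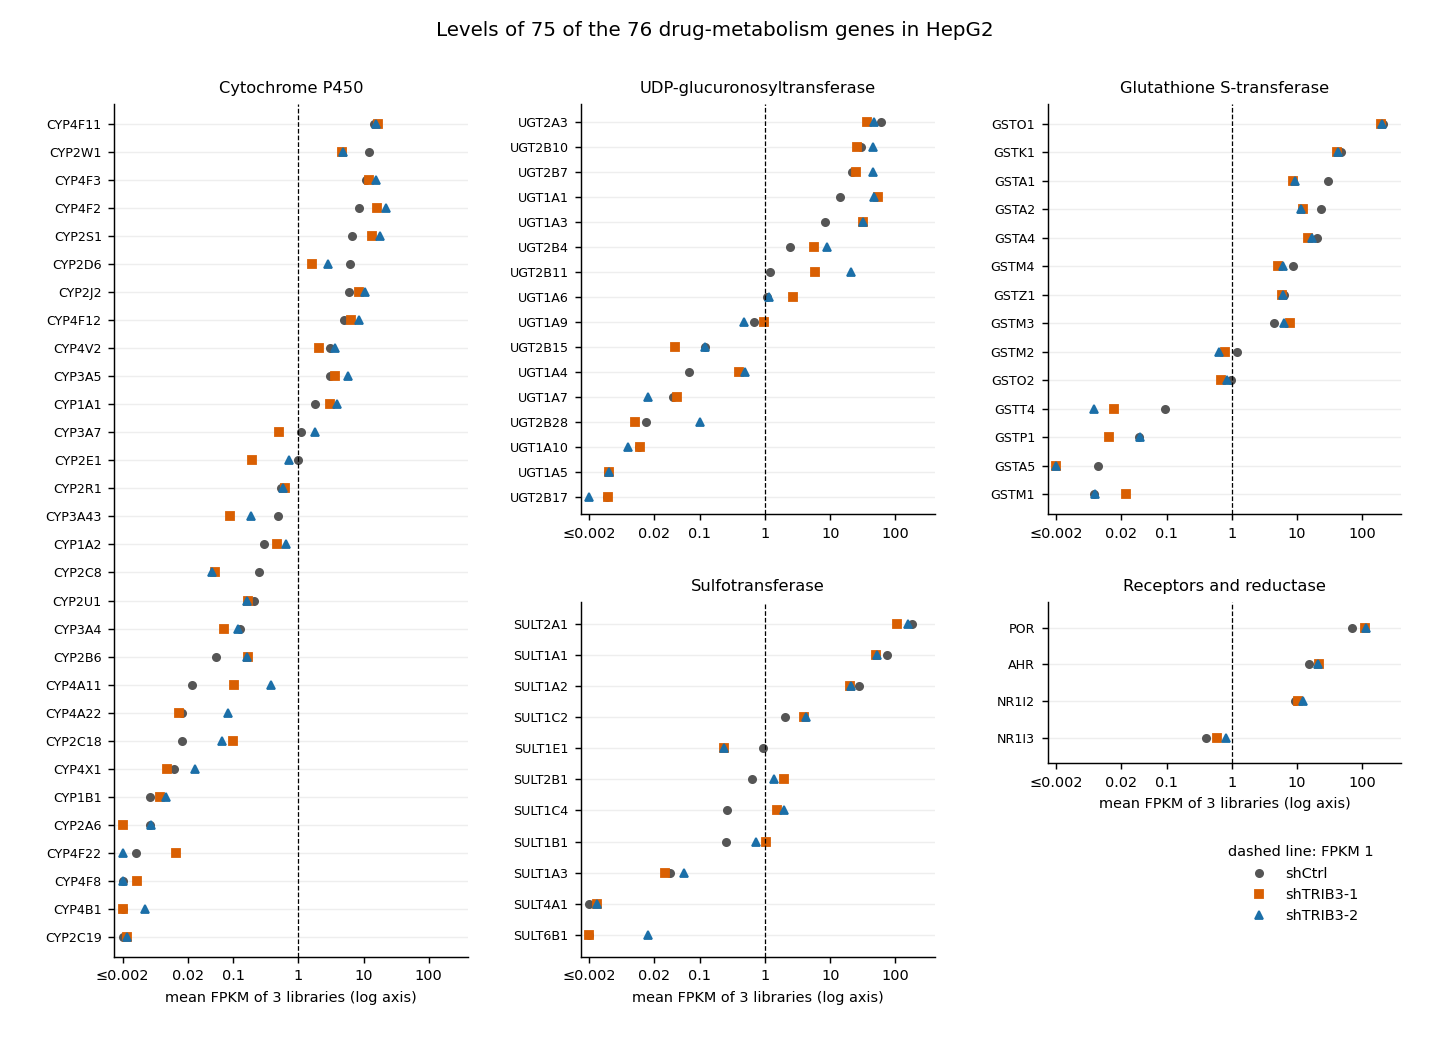
Mean FPKM of 3 libraries (log axis) for 75 of the 76 members, by family, in shCtrl (circles), shTRIB3-1 (squares) and shTRIB3-2 (triangles); means of 0.002 or less are drawn at the left edge and the dashed line marks FPKM 1. GSTO1 and SULT2A1 stand furthest right, while CYP2A6, CYP2C19 and CYP1B1 lie far to the left of the line in every group.

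A gene is said to have risen or fallen when limma's adjusted p, corrected over all 11265 tested genes, was under 0.05, and is said to be called when its log2 fold change was also beyond 1 in size. With shTRIB3-1, 22 of the 39 tested members rose, 15 fell and 2 did not pass the test, where 32.9% and 41.5% of all tested genes rose and fell. Calls were made for 8 higher members (20.5%) against 5.39% of all tested genes, and for 4 lower members (10.3%) against 6.1%. With shTRIB3-2, 23 members rose, 12 fell and 4 did not pass, against 35.4% and 40.5% of all tested genes. There, 12 members (30.8%) were called higher against 6.06%, and 4 (10.3%) were called lower against 6.27%. The median log2 fold change over the 39 was 0.19 with shTRIB3-1 and 0.49 with shTRIB3-2, beside -0.056 and -0.035 over all tested genes. Some members were tested only because of the groups in which they are high, namely SULT1C4, SULT1B1 and SULT2B1 in knockdown, GSTM2 in shCtrl and CYP3A7 in shCtrl and shTRIB3-2. UGT1A6 and UGT2B11 reached FPKM 1 in 2 control libraries and met the minimum with the knockdown libraries, so these shares describe the list and do not stand as support. With 1 in place of 0.1 added before logs, 14 of the 31 calls over the 3 comparisons fell short of the fold threshold and 17 remained. The same 3 control libraries serve both comparisons, and the values with each hairpin are therefore set side by side.

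Of 8 tested UGT genes, 6 rose with each hairpin, and of 9 tested GST genes, 6 fell with each. Over all tested genes, 32.9% and 35.4% rose and 41.5% and 40.5% fell with shTRIB3-1 and shTRIB3-2. The median log2 fold changes with shTRIB3-1 and shTRIB3-2 were 0.24 and 0.69 for P450, 1.22 and 1.41 for UGT, 0.96 and 1.07 for SULT, and -0.44 and -0.27 for GST genes. Summed over a family, the P450 transcripts came to 81.3 ± 1.56 FPKM with the control hairpin, 90.6 ± 2.50 in shTRIB3-1 libraries and 115 ± 4.18 in those of shTRIB3-2 (SD, n = 3). The UGT sum went from 138 ± 2.84 to 187 ± 4.12 and 248 ± 5.35 (SD, n = 3). In contrast, the SULT sum was 288 ± 4.36, 185 ± 3.92 and 236 ± 4.24, and the GST sum 349 ± 3.24, 294 ± 7.21 and 304 ± 7.995 (SD, n = 3). The SULT sum is lower in knockdown although 4 of 7 tested SULT genes rose, because the fallers SULT2A1 and SULT1A1 hold most of it.

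**Figure D2:**
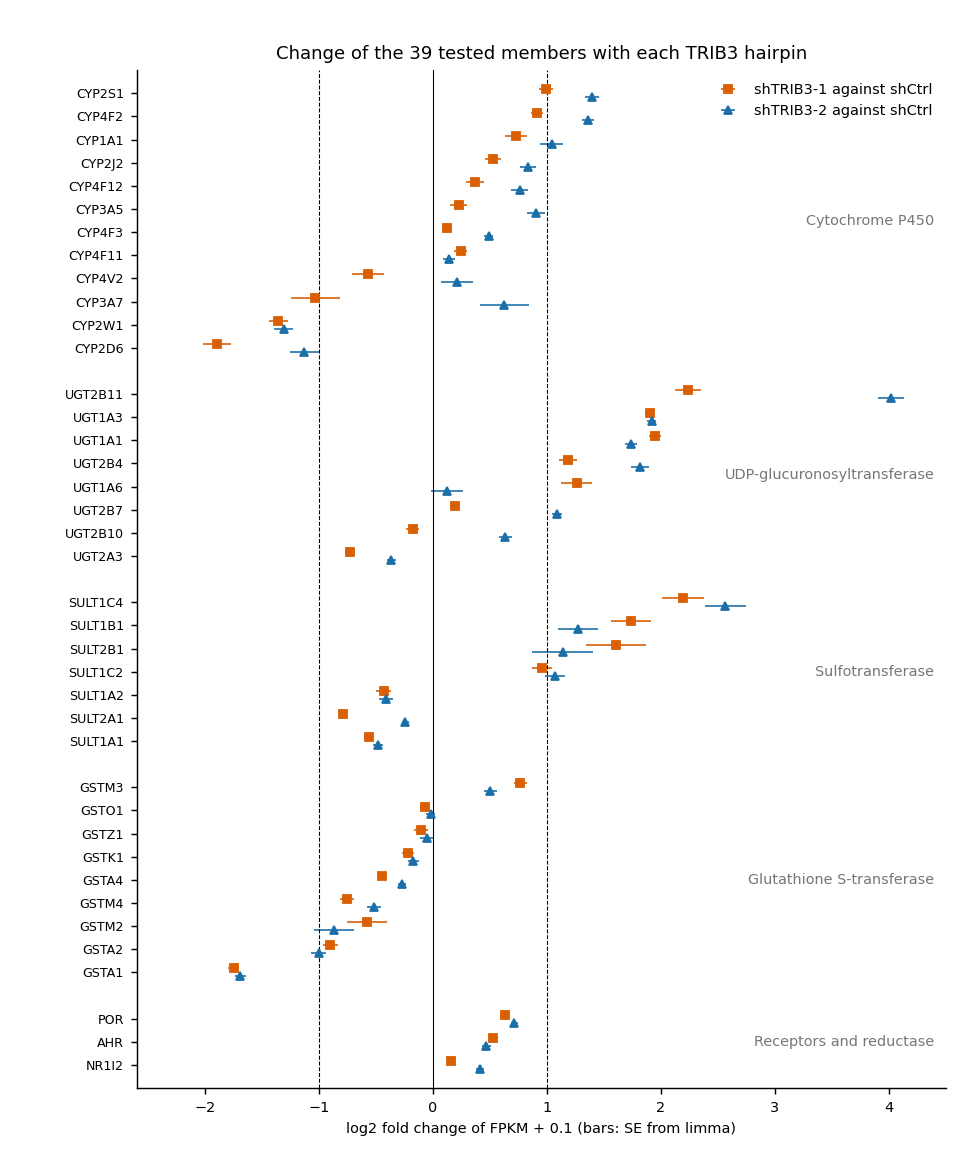
Log2 fold change of FPKM + 0.1 for the 39 tested members against shCtrl, with shTRIB3-1 as squares and shTRIB3-2 as triangles, bars giving the SE from limma and dashed lines the fold threshold of 1. UGT2B11 lies furthest to the right at 2.24 and 4.02, CYP2D6 furthest to the left at -1.89 with shTRIB3-1, and GSTO1 lies beside 0.

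Among the regulators, POR, the electron donor of every microsomal P450, rose with both hairpins. Its FPKM were 68.6, 72.4 and 71.3 in shCtrl libraries, against 113, 106 and 111 for shTRIB3-1 and 118, 116 and 115 for shTRIB3-2. Every knockdown library was above every control library, with log2 fold changes of 0.63 (SE 0.0325, limma adjusted p 4.11e-09) and 0.71 (SE 0.0325, limma adjusted p 1.19e-09). These were bulk libraries, in which more RNA per cell and more cells of a kind that expresses the gene cannot be told apart, here and below.

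AHR, the dioxin receptor, read 15.22, 15.03 and 14.88 FPKM in shCtrl, 21.8 in each shTRIB3-1 library, and 20.4, 20.4 and 21.9 in shTRIB3-2. Every knockdown library was above the controls, while the hairpin groups overlapped each other, and AHR rose by 0.53 and 0.47 on the log2 scale (limma adjusted p 6.46e-08 and 1.70e-07). By the GENCODE annotation, 29.5% of the exon bases of AHR are shared with unnamed genes on the same strand. NR1I2, the xenobiotic sensor, read 9.24, 9.53 and 9.42 FPKM in the control libraries, 10.4, 10.7 and 10.5 with shTRIB3-1 and 12.8, 12.3 and 12.5 with shTRIB3-2. Its rise was small with shTRIB3-1 (log2 fold change 0.16, limma adjusted p 0.0023) and larger with shTRIB3-2 (0.41, limma adjusted p 8.51e-07). NR1I3 was below the minimum for testing, at 0.407 ± 0.0340 FPKM with the control hairpin, 0.584 ± 0.189 in shTRIB3-1 libraries and 0.823 ± 0.107 in those of shTRIB3-2 (SD, n = 3).

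Within the P450 genes, 8 of 12 tested members rose and 4 fell with shTRIB3-1, where 32.9% and 41.5% of all tested genes did. With shTRIB3-2, 9 rose and 2 fell, against 35.4% and 40.5% of all tested genes. None of them was called higher with shTRIB3-1, while CYP1A1, CYP2S1 and CYP4F2 were called higher with shTRIB3-2. CYP2D6 and CYP2W1 were called lower with both hairpins, and CYP3A7 was called lower with shTRIB3-1. Of all tested genes, 5.39% and 6.06% were called higher with shTRIB3-1 and shTRIB3-2, and 6.1% and 6.27% were called lower.

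CYP1A1, the classical target of AHR, read 1.88, 1.80 and 1.74 FPKM in shCtrl libraries, against 3.31, 3.04 and 2.84 for shTRIB3-1 and 3.28, 3.90 and 4.36 for shTRIB3-2. It rose with log2 fold changes of 0.73 (SE 0.1001, limma adjusted p 3.04e-05) and 1.04 (SE 0.1001, limma adjusted p 1.15e-06), and without replicate 3 of shTRIB3-2 the second was 0.95 and no longer called. The sister genes of family 1 were scarce, with CYP1A2 at 0.299 ± 0.0631, 0.467 ± 0.0171 and 0.643 ± 0.160 FPKM (SD, n = 3) and CYP1B1 at most 0.0168 FPKM in any library.

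CYP2S1, a P450 of epithelia that is also an AHR target, read 6.80, 7.04 and 6.03 FPKM in shCtrl. It reached 13.8, 12.7 and 13.3 in shTRIB3-1 and 16.7, 17.9 and 18.1 in shTRIB3-2, so the 3 groups stood in order without overlap. Its log2 fold changes were 0.99 (SE 0.0596, limma adjusted p 1.74e-08), just short of a call, and 1.40 (SE 0.0596, limma adjusted p 6.81e-10). Leaving out replicate 1 or 2 of shCtrl, or replicate 2 of shTRIB3-1, brought the first to 1.01, 1.04 and 1.02, past the threshold.

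CYP4F2, an omega-hydroxylase of fatty acids and vitamin K, followed the same order. It read 8.05, 8.42 and 8.74 FPKM in the control libraries, 15.3, 15.6 and 16.9 with shTRIB3-1 and 23.2, 21.2 and 20.8 with shTRIB3-2. The log2 fold changes were 0.91 (SE 0.0539, limma adjusted p 1.49e-08) and 1.36 (SE 0.0539, limma adjusted p 3.46e-10). The fold changes of its neighbours on chromosome 19 were smaller. CYP4F12 rose by 0.37 and 0.76, CYP4F3 by 0.13 and 0.49, and CYP4F11 by 0.25 and 0.14 on the log2 scale, the last of these with limma adjusted p of 0.0019 and 0.039. The rise of CYP4F11 with shTRIB3-2 did not pass in 7 alternatives (limma adjusted p 0.056 to 0.179), and was 0.085 without replicate 3 of shTRIB3-2. That of CYP4F3 with shTRIB3-1 did not pass after rescaling to TPM, at 0.073 (limma adjusted p 0.208), nor without replicate 2 of shCtrl, at 0.11 (limma adjusted p 0.062). CYP4F genes are close paralogs, and fragments that fit several of them may have been split or dropped in the counting. CYP4V2, a fatty acid hydroxylase, had a log2 fold change of -0.57 with shTRIB3-1 (limma adjusted p 0.0031) and of 0.21 with shTRIB3-2 (limma adjusted p 0.189). CYP2J2, an epoxygenase of arachidonic acid, rose from 5.88 ± 0.580 to 8.52 ± 0.503 and 10.5 ± 0.388 FPKM (SD, n = 3).

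CYP2D6 (chr22:42126499-42130865, minus strand), which clears many antidepressants and opioids, had the largest fall of the tested P450 genes with shTRIB3-1, and CYP2W1 that with shTRIB3-2. CYP2D6 read 5.70, 6.31 and 6.59 FPKM with the control hairpin, 1.62, 1.38 and 1.81 in shTRIB3-1 libraries and 3.07, 2.24 and 3.10 in those of shTRIB3-2. The groups did not overlap, and the fall was larger with shTRIB3-1 (log2 fold change -1.89, SE 0.127, limma adjusted p 4.79e-08) than with shTRIB3-2 (-1.13, SE 0.127, limma adjusted p 4.82e-06), a difference of 0.77 that passed the test between the hairpins (limma adjusted p 4.43e-04). Without replicate 2 of shTRIB3-2 its fall with that hairpin was -0.98 and no longer called. CYP2D6 lies beside a pseudogene of nearly the same sequence, so its level is uncertain. CYP2W1, a P450 known from fetal and tumour tissue, read 10.98, 11.8 and 12.9 FPKM in shCtrl libraries, against 4.85, 4.11 and 4.81 for shTRIB3-1 and 5.03, 4.32 and 4.93 for shTRIB3-2. It fell with both hairpins, with log2 fold changes of -1.36 (SE 0.0829, limma adjusted p 2.05e-08) and -1.31 (SE 0.0829, limma adjusted p 2.44e-08), and the difference between them was 0.05 (SE 0.0829, limma adjusted p 0.645).

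The CYP3A genes, whose enzymes clear the largest share of prescribed drugs in adult liver, did not move together. CYP3A7, the fetal form, read 1.32, 1.13 and 0.8995 FPKM in the control libraries, 0.309, 0.632 and 0.581 with shTRIB3-1 and 2.12, 1.63 and 1.56 with shTRIB3-2. It thus lay lowest with one hairpin and highest with the other, with log2 fold changes of -1.03 (SE 0.217, limma adjusted p 9.57e-04) and 0.63 (SE 0.217, limma adjusted p 0.020). Each of these rests on few libraries: without replicate 1 of shCtrl or of shTRIB3-1 the first was -0.91 and -0.77 and not called, and without replicate 3 of shCtrl or replicate 1 of shTRIB3-2 the second was 0.49 and 0.50, with limma adjusted p of 0.080 and 0.083. Of the exon bases of CYP3A7, 42.6% are shared with the readthrough gene CYP3A7-CYP3A51P. CYP3A5 read 3.44, 2.84 and 2.91 FPKM with the control hairpin, 3.70, 3.38 and 3.70 in shTRIB3-1 libraries and 6.001, 5.74 and 5.66 in those of shTRIB3-2. The shTRIB3-1 values overlapped the controls (log2 fold change 0.23, limma adjusted p 0.018), and that rise did not pass in 5 alternatives, among them leaving out replicate 2 or 3 of shCtrl or replicate 1 or 3 of shTRIB3-1 (limma adjusted p 0.058 to 0.079). The rise with shTRIB3-2 was 0.90 (limma adjusted p 3.72e-07). CYP3A4, the main adult form, had 4 to 18 fragments per library and no group stood apart.

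At the UGT1A locus on chromosome 2, UGT1A1 and UGT1A3 rose with both hairpins and UGT1A6 rose with shTRIB3-1. Each UGT1A gene has a first exon and promoter of its own, spliced to a common set of downstream exons, and in GENCODE 50.1% of the exon bases of UGT1A1 and 77.9% of those of UGT1A3 are shared with other UGT1A genes. How the counting assigned fragments from the common exons is not stated, so the level of each UGT1A gene is uncertain. UGT1A1 (chr2:233760270-233773300, plus strand, GENCODE on GRCh38), the bilirubin-conjugating enzyme, read 15.3, 13.3 and 13.1 FPKM in shCtrl libraries, against 53.4, 53.1 and 54.8 for shTRIB3-1 and 47.2, 45.04 and 46.9 for shTRIB3-2. All knockdown libraries lay far above the controls, with log2 fold changes of 1.95 (SE 0.0522, limma adjusted p 1.93e-11) and 1.74 (SE 0.0522, limma adjusted p 3.43e-11), and it stood slightly lower with shTRIB3-2 than with shTRIB3-1 (difference -0.21, limma adjusted p 0.0058). UGT1A3, which glucuronidates bile acids among other substrates, read 7.98, 8.61 and 8.30 FPKM in the control libraries, 32.1, 30.97 and 30.8 with shTRIB3-1 and 31.6, 30.7 and 32.8 with shTRIB3-2. It rose by 1.90 and 1.92 (SE 0.0400 each, limma adjusted p 3.55e-12 and 1.66e-12), and the hairpin groups overlapped.

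UGT1A6, which conjugates small phenols such as paracetamol, rose with 1 hairpin. It read 1.053, 1.23 and 0.889 FPKM with the control hairpin, 2.46, 2.91 and 2.602 in shTRIB3-1 libraries and 1.40, 1.07 and 1.02 in those of shTRIB3-2. Its change on the log2 scale was 1.26 with shTRIB3-1 (SE 0.1396, limma adjusted p 4.57e-06) and 0.12 with shTRIB3-2 (SE 0.1396, limma adjusted p 0.437), where the values overlapped the controls. UGT1A4 and UGT1A9 stayed under the minimum for testing. UGT1A4 had 7, 7 and 4 fragments in shCtrl libraries, against 39, 29 and 33 for shTRIB3-1 and 44, 34 and 45 for shTRIB3-2, and was named after its values were seen.

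The windows around the starts of these genes, 250 bases before to 50 after, are shown because the promoters are separate while the downstream exons are common. They were taken from RefSeq (GRCh38.p14, plus strand of chromosome 2) and belong to UGT1A6 at chr2:233691452-233691751, UGT1A4 at chr2:233718486-233718785, UGT1A3 at chr2:233728792-233729091 and UGT1A1 at chr2:233760020-233760319. Capitals mark a match to TNGCGTG, the core that AHR with its partner ARNT binds, in UGT1A6, and overlapping matches on both strands to GTTAATNAT, an HNF1 motif, in UGT1A3. RefSeq gives UGT1A6 another start, whose window at chr2:233692640-233692939 is not printed. That window has no match to TNGCGTG but has one to TGACNNNGC, the core of the antioxidant response element.
UGT1A6: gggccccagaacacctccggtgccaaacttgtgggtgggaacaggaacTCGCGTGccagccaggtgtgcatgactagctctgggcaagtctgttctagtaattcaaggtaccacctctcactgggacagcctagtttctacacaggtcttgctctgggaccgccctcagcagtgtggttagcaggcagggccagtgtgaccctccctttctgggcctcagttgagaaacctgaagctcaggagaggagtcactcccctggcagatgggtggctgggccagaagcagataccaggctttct
UGT1A4: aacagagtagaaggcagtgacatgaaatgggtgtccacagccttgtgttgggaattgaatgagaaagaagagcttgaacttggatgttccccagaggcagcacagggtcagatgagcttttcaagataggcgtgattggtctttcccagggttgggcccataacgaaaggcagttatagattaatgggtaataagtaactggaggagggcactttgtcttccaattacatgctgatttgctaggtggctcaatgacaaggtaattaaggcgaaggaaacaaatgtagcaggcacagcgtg
UGT1A3: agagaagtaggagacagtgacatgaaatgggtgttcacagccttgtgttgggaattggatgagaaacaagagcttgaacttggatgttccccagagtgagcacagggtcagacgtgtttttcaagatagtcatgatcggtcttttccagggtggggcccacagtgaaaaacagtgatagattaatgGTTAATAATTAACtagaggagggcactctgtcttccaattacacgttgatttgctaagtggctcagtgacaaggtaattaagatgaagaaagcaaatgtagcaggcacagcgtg
UGT1A1: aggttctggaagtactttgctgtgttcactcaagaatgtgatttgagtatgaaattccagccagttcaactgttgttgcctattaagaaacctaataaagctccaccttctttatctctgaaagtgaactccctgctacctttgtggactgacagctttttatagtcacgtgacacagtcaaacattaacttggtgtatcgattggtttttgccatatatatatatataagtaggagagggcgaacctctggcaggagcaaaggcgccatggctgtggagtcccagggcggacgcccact
The windows were aligned end to end with gaps allowed. The UGT1A3 and UGT1A4 windows then shared 87.7% of their bases. UGT1A3 and UGT1A1, the pair that rose most of the UGT1A genes tested, shared 47.7%. The HNF1 motif was present in 0.792% of 35116 promoter windows and the AHR motif in 5.51%, each on either strand. Among the 68 windows of members, 1 (1.47%) held the HNF1 motif and 2 (2.94%) held the AHR motif. A match describes letters only.

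All 4 tested UGT2B genes on chromosome 4 stood higher with shTRIB3-2 than with shTRIB3-1, by 0.63 for UGT2B4, 0.81 for UGT2B10, 0.90 for UGT2B7 and 1.78 for UGT2B11 on the log2 scale (limma adjusted p at most 6.82e-05). UGT2B11 (chr4:69199951-69214748, minus strand) showed the largest change of the 39 tested members. It read 0.992, 1.46 and 1.10 FPKM in the control libraries, 6.24, 5.17 and 6.34 with shTRIB3-1 and 20.9, 20.4 and 20.3 with shTRIB3-2, so the 3 groups were far apart. The log2 fold changes were 2.24 (SE 0.115, limma adjusted p 4.27e-09) and 4.02 (SE 0.115, limma adjusted p 2.22e-11), from 299, 1429 and 4991 fragments per group. UGT2B4, which acts on bile acids, read 2.15, 2.34 and 2.82 FPKM with the control hairpin, 5.55, 5.56 and 5.80 in shTRIB3-1 libraries and 8.68, 8.97 and 8.68 in those of shTRIB3-2. It rose by 1.19 and 1.82 (SE 0.0815 each, limma adjusted p 5.89e-08 and 1.04e-09).

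UGT2B7, the morphine-conjugating enzyme, read 21.2, 21.3 and 22.0 FPKM in shCtrl libraries, against 26.3, 24.2 and 23.2 for shTRIB3-1 and 46.7, 46.4 and 44.5 for shTRIB3-2. It rose by only 0.19 with shTRIB3-1 (limma adjusted p 0.0019) and by 1.09 with shTRIB3-2 (limma adjusted p 4.30e-10). UGT2B10, which conjugates tertiary amines such as nicotine, went in opposite directions. It read 27.5, 29.0 and 30.98 FPKM in the control libraries, 25.9, 23.8 and 27.6 with shTRIB3-1 and 47.1, 44.2 and 44.5 with shTRIB3-2, for log2 fold changes of -0.18 (limma adjusted p 0.013) and 0.64 (limma adjusted p 5.55e-07). The shTRIB3-1 values overlapped the controls, and with each library centred on its median that fall was -0.097 and did not pass (limma adjusted p 0.14). Without replicate 3 of shCtrl or replicate 2 of shTRIB3-1 it was -0.13 and -0.12 and did not pass either (limma adjusted p 0.061 in both). UGT2A3 was the UGT gene that fell with both, from 60.04 ± 1.58 to 36.3 ± 0.762 and 46.7 ± 1.82 FPKM (SD, n = 3) (log2 fold changes -0.73 and -0.36, limma adjusted p 2.87e-09 and 1.43e-06).

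**Figure D3:**
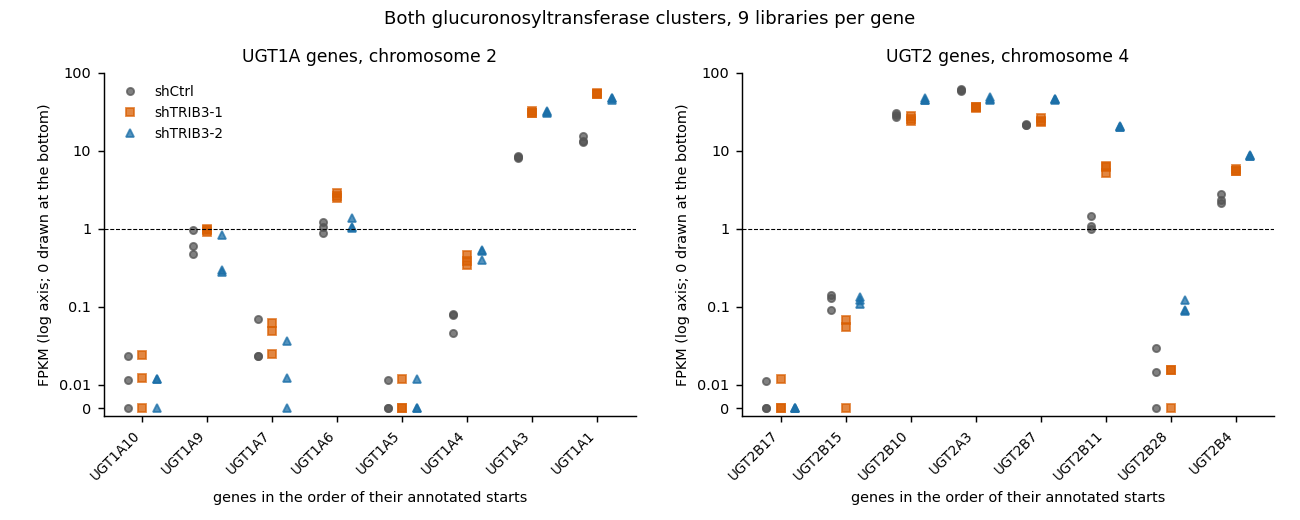
FPKM (log axis, with 0 drawn at the bottom) of each UGT1A gene (left) and UGT2 gene (right) in the 9 libraries, in the order of their annotated starts, with shCtrl as circles, shTRIB3-1 as squares and shTRIB3-2 as triangles. UGT1A3 and UGT1A1, at one end of the UGT1A locus, are raised by both hairpins, while UGT2B10, UGT2B7, UGT2B11 and UGT2B4 stand highest in shTRIB3-2.

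The UGT2B genes are recent duplicates, which shows in the same windows of their starts (RefSeq, GRCh38.p14), given for UGT2B7 at chr4:69096224-69096523 and UGT2B10 at chr4:68815744-68816043 on the plus strand and UGT2B11 at chr4:69214699-69214998 on the minus strand. Each is written in the direction of its gene, and capitals mark a match, on the opposite strand, to TGACNNNGC, the core of the antioxidant response element, which 13.3% of all promoter windows hold.
UGT2B7: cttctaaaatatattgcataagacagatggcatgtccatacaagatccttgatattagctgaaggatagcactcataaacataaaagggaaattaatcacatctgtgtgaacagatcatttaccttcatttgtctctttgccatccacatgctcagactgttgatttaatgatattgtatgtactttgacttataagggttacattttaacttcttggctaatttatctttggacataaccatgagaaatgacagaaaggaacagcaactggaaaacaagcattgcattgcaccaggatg
UGT2B10: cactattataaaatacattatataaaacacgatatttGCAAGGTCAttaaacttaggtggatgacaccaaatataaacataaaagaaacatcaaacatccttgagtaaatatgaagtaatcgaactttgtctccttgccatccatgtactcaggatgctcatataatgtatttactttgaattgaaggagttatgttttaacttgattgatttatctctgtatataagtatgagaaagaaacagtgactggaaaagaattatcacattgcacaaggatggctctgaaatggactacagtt
UGT2B11: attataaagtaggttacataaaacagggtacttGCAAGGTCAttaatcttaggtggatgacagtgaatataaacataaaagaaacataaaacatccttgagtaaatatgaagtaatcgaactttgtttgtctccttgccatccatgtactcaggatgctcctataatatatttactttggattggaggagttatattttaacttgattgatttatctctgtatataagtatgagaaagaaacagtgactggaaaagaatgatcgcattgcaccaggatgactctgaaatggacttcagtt
Aligned in the same way as the UGT1A windows, UGT2B10 and UGT2B11 shared 91.3% of their bases. They hold the match at nearly the same place, 213 and 217 bases before the start. UGT2B11 rose with both hairpins, while UGT2B10 rose with shTRIB3-2 and fell slightly with shTRIB3-1. UGT2B7 and UGT2B11 shared 67.3%. Transcripts this alike can share fragments, and the separate levels of the UGT2B genes are uncertain.

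Of the 7 tested sulfotransferases, the 3 with the highest control levels fell with both hairpins and the 4 below them rose. Of those 4, SULT1B1, SULT1C4 and SULT2B1 met the minimum only through knockdown libraries, and SULT1E1, scarce and not tested, went the other way, as its fragment numbers below show. SULT2A1 read 179, 186 and 182 FPKM with the control hairpin, 103, 105 and 109.8 in shTRIB3-1 libraries and 157, 157 and 149 in those of shTRIB3-2. It fell, with a log2 fold change of -0.79 with shTRIB3-1 (SE 0.0337, limma adjusted p 8.87e-10) and of -0.24 with shTRIB3-2 (SE 0.0337, limma adjusted p 3.31e-05), and the groups did not overlap. SULT1A1, the main phenol sulfotransferase, fell from 73.8 ± 2.05 to 49.9 ± 2.74 and 52.9 ± 2.14 FPKM (SD, n = 3) (log2 fold changes -0.56 and -0.48, limma adjusted p 1.93e-07 and 7.53e-07). SULT1A2, its close relative, fell from 27.3 ± 0.924 to 20.3 ± 2.20 and 20.5 ± 0.674 FPKM (SD, n = 3). SULT1A1 and SULT1A2 are near-identical in sequence, and their separate levels are uncertain.

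SULT1C2 and SULT1C4, neighbours on chromosome 2 that are known from fetal tissue, rose with both hairpins. SULT1C2 read 2.28, 1.94 and 1.79 FPKM in shCtrl libraries, against 3.81, 4.14 and 3.93 for shTRIB3-1 and 4.62, 4.22 and 4.06 for shTRIB3-2, for log2 fold changes of 0.96 (limma adjusted p 9.44e-07) and 1.07 (limma adjusted p 2.96e-07). Its place around the threshold turned on single libraries, since without replicate 1 of shCtrl the first was 1.048 and without replicate 3 of shCtrl the second was just short of 1. SULT1C4 read 0.183, 0.370 and 0.221 FPKM in the control libraries, 1.68, 1.26 and 1.61 with shTRIB3-1 and 1.97, 2.15 and 1.82 with shTRIB3-2, from 81, 454 and 597 fragments per group. It rose by 2.20 and 2.57 (SE 0.184 each, limma adjusted p 3.54e-07 and 7.35e-08).

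SULT1B1, which sulfates thyroid hormones, read 0.165, 0.292 and 0.284 FPKM with the control hairpin, 1.04, 1.00 and 1.08 in shTRIB3-1 libraries and 0.784, 0.652 and 0.748 in those of shTRIB3-2. It rose by 1.74 and 1.27 (SE 0.174 each, limma adjusted p 1.86e-06 and 2.76e-05), the second being 0.76 and not called under quantile normalization. SULT2B1, a cholesterol sulfotransferase of skin, read 1.03, 0.490 and 0.338 FPKM in shCtrl libraries, against 2.02, 1.87 and 1.88 for shTRIB3-1 and 1.46, 1.12 and 1.54 for shTRIB3-2. The spread of its controls was wide, and it rose by 1.61 and 1.14 (SE 0.267 each, limma adjusted p 1.51e-04 and 0.0019). Without replicate 3 of shCtrl the second was 0.84 and not called. All 4 changes are understated by the 0.1 added before taking logs.

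**Figure D4:**
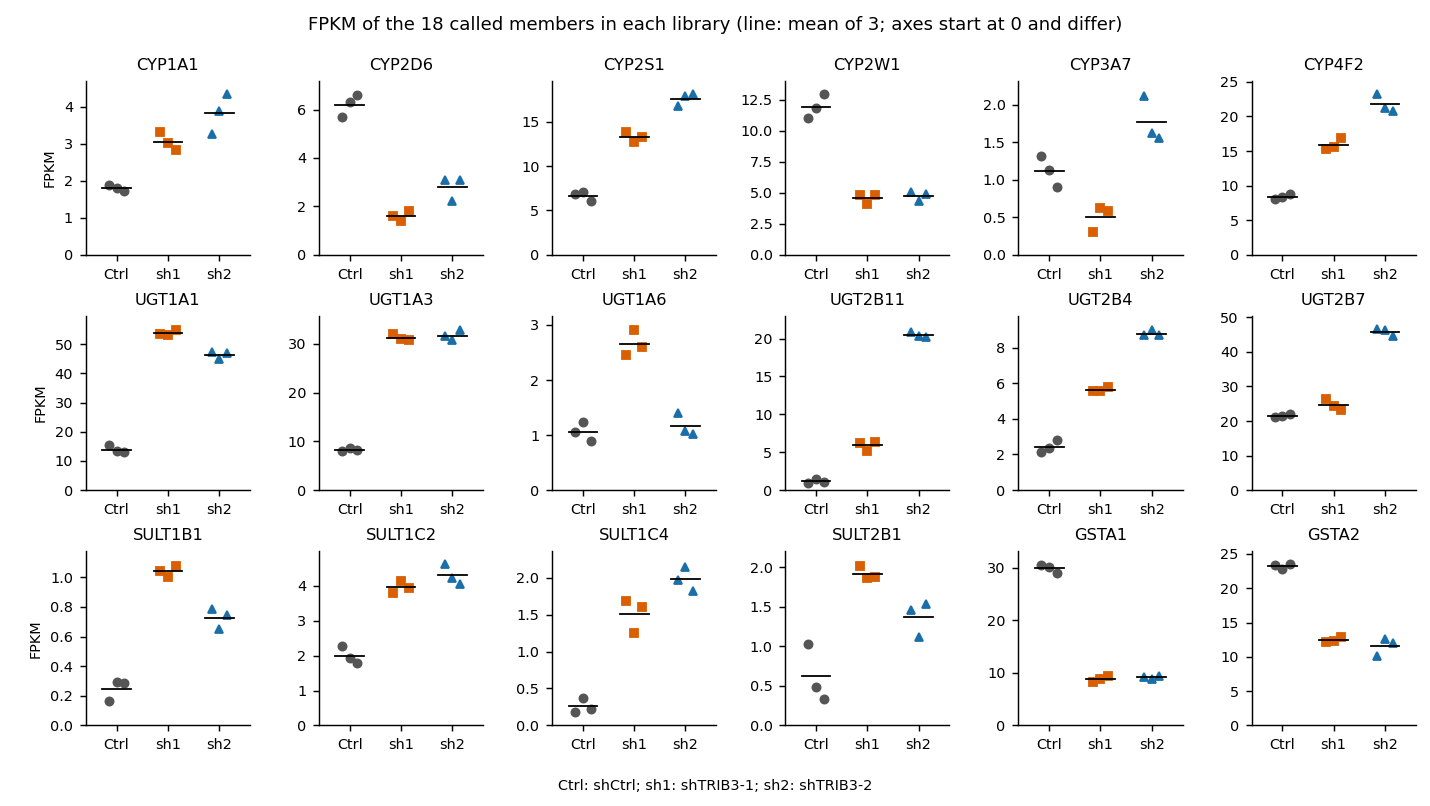
FPKM of the 18 members called in at least 1 comparison, 1 panel per gene, in each shCtrl (circles), shTRIB3-1 (squares) and shTRIB3-2 (triangles) library; lines are means of 3 and each axis starts at 0. The knockdown libraries of UGT1A1, UGT1A3 and GSTA1 lie far from their controls, UGT2B11 climbs from 1.18 to 5.92 and 20.5, and CYP3A7 and UGT1A6 differ between the hairpins.

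The glutathione S-transferases were the family that mainly fell. GSTA1 (chr6:52791371-52803860, minus strand), the major alpha-class transferase of hepatocytes, read 30.4, 30.0 and 29.0 FPKM in the control libraries, 8.27, 8.90 and 9.32 with shTRIB3-1 and 9.22, 8.86 and 9.47 with shTRIB3-2. It fell, with log2 fold changes of -1.75 and -1.69 (SE 0.0484 each, limma adjusted p 2.48e-11 and 2.21e-11), and the hairpins overlapped. GSTA2, its neighbour on chromosome 6, read 23.4, 22.8 and 23.5 FPKM with the control hairpin, 12.1, 12.3 and 12.9 in shTRIB3-1 libraries and 10.2, 12.6 and 12.1 in those of shTRIB3-2. It fell, with log2 fold changes of -0.90 (limma adjusted p 9.05e-08) and -1.001 (limma adjusted p 2.95e-08), the second a call that was lost without replicate 1 of shTRIB3-2 (-0.91), replicate 1 of shCtrl (-0.997) or replicate 3 of shCtrl (-0.99). GSTA1 and GSTA2 are close paralogs and may share fragments.

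GSTA4, which detoxifies lipid peroxidation products, fell, with log2 fold changes of -0.44 and -0.27, as did GSTM4 with -0.75 and -0.52, GSTM2 with -0.58 and -0.87, and the mitochondrial and peroxisomal GSTK1 with -0.22 and -0.17 (limma adjusted p between 1.87e-07 and 0.0097). GSTM3 was the exception, rising from 4.48 ± 0.281 to 7.71 ± 0.361 and 6.40 ± 0.255 FPKM (SD, n = 3). GSTO1, the most abundant member, read 206 ± 7.51, 197 ± 6.60 and 204 ± 8.47 FPKM (SD, n = 3), with log2 fold changes of -0.07 (SE 0.0399, limma adjusted p 0.128) and -0.02 (SE 0.0399, limma adjusted p 0.683), and GSTZ1 also did not pass. GSTP1, the form abundant in many tumours, was listed at 0 in 4 of 9 libraries and never exceeded 0.111 FPKM. GSTM1, commonly deleted in people, never exceeded 0.0480.

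Some genes too scarce for the main test still differed when every gene was tested. Those with values here held at most 69 fragments in any library and, apart from CYP2E1 and CYP2B6, were named after their values were seen. CYP2E1, the ethanol-inducible P450, had 49, 60 and 67 fragments in shCtrl libraries, against 9, 14 and 10 for shTRIB3-1 and 46, 27 and 51 for shTRIB3-2. Its log2 fold change was -1.89 with shTRIB3-1 (limma adjusted p 1.999e-04) and -0.43 with shTRIB3-2 (limma adjusted p 0.203). CYP3A43 had 54, 57 and 62 fragments in the control libraries, 8, 13 and 10 with shTRIB3-1 and 24, 21 and 20 with shTRIB3-2, with log2 fold change -1.62 (limma adjusted p 2.30e-05) and -1.02 (limma adjusted p 4.24e-04). CYP2C8, a drug-clearing P450, had 20, 23 and 11 fragments with the control hairpin, 4, 2 and 5 in shTRIB3-1 libraries and 4, 1 and 5 in those of shTRIB3-2. CYP4A11, a fatty acid omega-hydroxylase, had 3, 3 and 1 fragments in shCtrl libraries, against 13, 5 and 11 for shTRIB3-1 and 46, 31 and 31 for shTRIB3-2, for a log2 fold change of 1.93 with shTRIB3-2 (limma adjusted p 6.13e-05). CYP2B6, the marker target of the constitutive androstane receptor, had 8, 4 and 6 fragments in the control libraries, 19, 17 and 18 with shTRIB3-1 and 14, 16 and 22 with shTRIB3-2, and the oestrogen sulfotransferase SULT1E1 had 58, 53 and 69, then 12, 14 and 17, then 8, 15 and 21. Counts this small leave wide counting error in each library.

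The hairpins differed from each other in 23 members. Directly compared, 19 members stood higher in shTRIB3-2 than in shTRIB3-1, 4 stood lower and 16 did not pass the test, against 25.1% and 20.7% of all tested genes higher and lower. UGT2B11 and CYP3A7 were called higher in shTRIB3-2 (0.284% of all tested genes were), with log2 fold changes of 1.78 (SE 0.115, limma adjusted p 2.59e-07) and 1.66 (SE 0.217, limma adjusted p 7.37e-05). UGT1A6 was called lower (1.79% of all tested genes were), at -1.14 (SE 0.1396, limma adjusted p 4.57e-05). By family, 10 of 12 tested P450 genes and 5 of 8 UGT genes were higher in shTRIB3-2, and none of the P450 genes was lower. The median difference over the members was 0.17, beside 0.025 over all tested genes.

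The genes around these enzymes were read against the shares over all tested genes given above. Of all tested genes, 32.9% rose and 41.5% fell with shTRIB3-1, and 35.4% rose and 40.5% fell with shTRIB3-2. The shares called were 5.39% to 6.06% higher and 6.1% to 6.27% lower. Of 25 tested phase I enzymes outside the P450 family, such as dehydrogenases and esterases, 6 rose and 12 fell with shTRIB3-1, and 6 rose and 13 fell with shTRIB3-2 (median log2 fold changes -0.18 and -0.14). The one called was ALDH3A2, the fatty aldehyde dehydrogenase, at 80.5 ± 2.49, 34.1 ± 0.737 and 36.5 ± 0.151 FPKM (SD, n = 3), with log2 fold changes of -1.24 and -1.14. Of 16 tested conjugation enzymes and suppliers of their cofactors outside the members, 4 rose and 10 fell with shTRIB3-1 and 5 rose and 10 fell with shTRIB3-2 (medians -0.26 and -0.25). PAPSS2, which makes the sulfate donor of the SULT enzymes, was called higher (1.28 and 1.049) and met the minimum only through knockdown libraries, at 0.400 ± 0.0892, 1.10 ± 0.144 and 0.946 ± 0.248 FPKM (SD, n = 3). PAPSS1, which makes the same donor and was far more abundant, fell from 23.6 ± 0.614 to 17.4 ± 0.157 and 18.6 ± 1.28 FPKM (SD, n = 3). Its log2 fold changes were -0.43 and -0.35. Of 13 tested transporters, 5 rose and 6 fell with shTRIB3-1 and 7 rose and 3 fell with shTRIB3-2 (medians -0.064 and 0.17). ABCG2, the breast cancer resistance protein, was called higher with shTRIB3-2, at 5.64 ± 0.315, 9.98 ± 0.379 and 14.0 ± 0.274 FPKM (SD, n = 3).

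The receptor partners and liver transcription factors mainly fell, with 16 of 28 lower and 6 higher with shTRIB3-1 and 17 lower and 7 higher with shTRIB3-2 (medians -0.20 and -0.17). Called lower with both hairpins, 10.7% of this list, were the coactivator PPARGC1A (-2.23 and -1.96, and tested only through its control libraries), the bile acid receptor NR1H4 (-1.45 and -1.40) and the hepatocyte factor ONECUT1 (-1.08 and -1.03). NR1H4 read 13.5, 13.7 and 13.7 FPKM with the control hairpin, 5.04, 4.88 and 4.87 in shTRIB3-1 libraries and 5.07, 5.00 and 5.28 in those of shTRIB3-2. Of 16 tested genes of electron and heme supply, 5 rose and 8 fell with shTRIB3-1, and 4 rose and 8 fell with shTRIB3-2 (medians -0.17 and -0.15). FDXR, the mitochondrial ferredoxin reductase, and ALAD, of heme synthesis, were called lower with shTRIB3-1 (-1.09 and -1.14). With shTRIB3-2 they also fell (-0.81 and -0.84) but were not called. HMOX1, the heme-degrading oxygenase, was called higher with shTRIB3-1 (1.15) and rose by 0.38 with shTRIB3-2. HSP90AA1, the chaperone that holds AHR in the cytoplasm, was called higher with shTRIB3-1 (1.06), at 662 ± 10.9, 1384 ± 66.0 and 787 ± 17.8 FPKM (SD, n = 3).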

How the data were processed

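RNA of 9 HepG2 libraries was sequenced, and the authors aligned the reads to GRCh38 with STAR. Their processing notes name HTSeq and R 3.2.0. The deposited values are FPKM per gene symbol, made by the authors, with no counts beside them. The labels and the methods of the study name different library kits, so whether strand was used in the counting is not given in the sources used here, and genes that overlap cannot be told apart. Of 172769 values above 0, 100.0% were whole fragment numbers within 0.02 once each library's total was worked out, which gave the depth.

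Log2(FPKM + 0.1) was fitted with limma 3.58.1 in R 4.3.3 (3 group means, empirical Bayes with a trend, two-sided, Benjamini-Hochberg adjustment over 11265 genes with FPKM of at least 1 in at least 3 libraries). The fit was tested on simulated data. A call needed an adjusted p under 0.05 and a log2 fold change beyond 1. Fold changes on this scale understate those of low genes. Named members were those called in a comparison, the 4 regulators, the 3 with the highest shCtrl mean in each family and 13 well-known genes, of which 1 is not reported here. The other tested members were added so that all 39 are accounted for, and for the surrounding lists at most the 3 called genes with the largest change per list were to be named. HSP90AA1 and PAPSS1 were added after their values were seen. The members and lists were chosen with earlier results of these data known. Samples were grouped by the hairpin in their labels. Alternatives were another pseudocount, other filters, other scalings, a replicate block, fragment weights (voom), pairwise fits and leaving out each library. Replicates of each group differed by more than sampling noise (chi-square per degree of freedom 3.13 to 7.54). Each library was counted as its own sample, though this spread cannot show whether the libraries came from separate cultures. Promoter windows came from RefSeq (GRCh38.p14). Symbols matched 61 of the 76 members.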

Additional observations from a re-analysis of the deposited data

Results flagged for a closer look

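Of the 23 members that differed in the direct comparison of shTRIB3-2 with shTRIB3-1, 3 did so beyond the fold threshold. UGT2B11 was higher in shTRIB3-2 by 1.78 (SE 0.115, limma adjusted p 2.59e-07), and all shTRIB3-2 libraries were above all shTRIB3-1 libraries. CYP3A7 was higher in shTRIB3-2 by 1.66 (SE 0.217, limma adjusted p 7.37e-05), from 109 fragments over the 3 shTRIB3-1 libraries and 383 over those of shTRIB3-2. UGT1A6 was lower in shTRIB3-2, with a difference of -1.14 (SE 0.1396, limma adjusted p 4.57e-05), from 707 and 311 fragments. TRIB3 itself was at 33.6 FPKM with shTRIB3-1 and 20.5 with shTRIB3-2, and whether the depth of knockdown bears on these differences was not tested.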

How the results depend on the processing

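Adding 1 in place of 0.1 before logs gave 3 members called higher with shTRIB3-1, 2 called lower with shTRIB3-2, and 1 higher and 0 lower between the hairpins. It also removed the higher calls of CYP1A1, SULT1B1, SULT1C2 and SULT2B1 with shTRIB3-2 and the lower call of CYP3A7 with shTRIB3-1. With FPKM of at least 5, 4 members were called higher with shTRIB3-1, 7 with shTRIB3-2, and 1 higher and 0 lower between the hairpins, since scarce members were not tested. Without a filter, when all 76 members were tested, 8 members were called lower with shTRIB3-1, 7 lower with shTRIB3-2 and 4 higher between the hairpins. Without a fold threshold the counts were 22 higher and 15 lower, 23 and 12, and 19 and 4. Leaving out 1 library at a time gave 7 to 10 higher and 3 to 4 lower with shTRIB3-1, 10 to 12 and 3 to 4 with shTRIB3-2, and 2 and 1 between the hairpins. The replicate block gave the same counts as the fit without it (8 and 4, 12 and 4, 2 and 1). Deviations of libraries with the same number correlated at -0.0742 to 0.0933, and those with different numbers at -0.0756 to 0.0479. Same-number pairs correlated highest between shCtrl and shTRIB3-1 and between the hairpins, but not between shCtrl and shTRIB3-2. Values this small cannot decide whether the numbers pair the samples. Weighting the recovered fragment numbers with voom gave 9 and 4, 12 and 4, and 2 and 1. The shares of all genes called were worked out for the reported fit only, so the counts under these alternatives describe the members alone. Of 31 calls, 17 were kept under all 18 alternatives that gave them a value.

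Small differences changed sign in GSTO1 (0.0093 with shTRIB3-1 and 0.033 with shTRIB3-2 under median centring, and for shTRIB3-2 from -0.0524 to 0.0038 without 1 library), while its fall with shTRIB3-1 passed under quantile normalization (-0.11, limma adjusted p 0.0067), rescaling to TPM (-0.13, limma adjusted p 0.0099), the replicate block (-0.071, limma adjusted p 0.045) and without replicate 1 of shCtrl (-0.10, limma adjusted p 0.040). Between the hairpins, UGT1A3 was -0.0093 and -0.0050 under median centring and quantile normalization and -0.0054 to 0.0417 without 1 library, and SULT1A2 was -0.0055 and -0.00041 under those scalings and -0.0213 to 0.110 without 1 library. CYP2W1 ranged between the hairpins from -0.025 to 0.118, and UGT1A6 with shTRIB3-2 from -0.0056 to 0.229, without 1 library. None of these passed the test in the reported fit. The rise of NR1I2 with shTRIB3-1 did not pass after TPM rescaling (0.11, limma adjusted p 0.056). SULT1B1 could not be tested without any 1 of the shTRIB3-1 libraries, since it then missed the minimum. The cause of these shifts was not tested.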

Other observations

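P450 genes outside families 1 to 4 make steroids, bile acids and other endogenous products rather than clear drugs, and 7 of the 17 in the table were tested. CYP17A1 met the minimum only through knockdown libraries and CYP21A2 only through control libraries, so the counts that follow are a description. With shTRIB3-1, 4 of them rose and 3 fell, and with shTRIB3-2, 3 rose, 3 fell and 1 did not pass (median log2 fold changes 0.43 and 0.13). CYP17A1, which makes the precursors of androgens and cortisol, read 0.303, 0.315 and 0.319 FPKM in the control libraries, 8.83, 8.94 and 9.33 with shTRIB3-1 and 5.81, 4.56 and 5.21 with shTRIB3-2. It was thus close to silent in every control and clearly present in every knockdown library, with log2 fold changes of 4.47 (SE 0.0873, limma adjusted p 2.10e-12) and 3.68 (SE 0.0873, limma adjusted p 4.94e-12). CYP21A2, the next step toward cortisol, read 1.72, 1.71 and 1.47 FPKM in the control libraries, 0.664, 0.288 and 0.568 with shTRIB3-1 and 0.910, 0.752 and 0.619 with shTRIB3-2. It fell, with log2 fold changes of -1.57 (limma adjusted p 4.37e-05) and -1.03 (limma adjusted p 0.0012). CYP21A2 lies beside a pseudogene of nearly the same sequence, so its level is uncertain.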
